A study of Drosophila melanogaster with 4 samples.

Results

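Histone H3 clusters of euchromatic 2L are the subject here: the regions listed as enriched in H3 on the left arm of chromosome 2 of *Drosophila melanogaster*, outside the 2 Mb nearest the centromere. Members were taken by position and sign. A region of the combined list counted when it lay on 2L, had a value above 0 and had its midpoint between base 1 and base 21011544 (FlyBase r5). This gave 3892 of the 23076 clusters of the combined list. In the same window lay 2939 of 18082 clusters of H3 ChIP replicate 1 and 3035 of 18625 clusters of replicate 2. The last member ran from 21008996 to 21010946 with a value of 0.32 (log2 of ChIP over input), and the first cluster beyond the limit from 21014970 to 21016938 with 0.33. On the side of the values, the lowest member had 0.0020 and the depleted region nearest to 0 had -0.0028.

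All libraries came from nuclei of 3rd instar larvae of the wild-type strain Oregon-R, and the labels give no treatment. There were 2 libraries from immunoprecipitation with an H3 antibody and 2 input libraries, each named by the labels as the input of the ChIP library with its number. Each ChIP replicate has a list of its own, and a further list for the replicate set, taken from its name to cover both replicates, is called the combined list. Larvae hold many tissues, so each value is an average over cell types. Nothing in the labels shows that the replicates came from separate cultures, so their spread may be technical.

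Histone H3 is a core component of the nucleosome, the protein spool around which DNA is wrapped. Nearly all chromatin holds H3, and active promoters and enhancers are known to be poor in nucleosomes. Total H3 is therefore often measured as a reference for histone modifications. Euchromatin, the gene-rich part of a chromosome arm, passes into repeat-rich heterochromatin near the centromere, which is why that end was left out.

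H3 clusters covered over 35% of euchromatic 2L in each replicate, in many narrow regions of modest enrichment. The covered share was 35.6% (7.48 Mb) in replicate 1 and 38.4% (8.07 Mb) in replicate 2, a mean of 37.0 ± 1.99% (SD, n = 2). Clusters stood at 140 per Mb in replicate 1 and 144 per Mb in replicate 2 (142 ± 3.23 per Mb, SD, n = 2). The combined list was denser, at 185 clusters per Mb over 11.1 Mb or 52.8% of the window. The files hold no read counts, so the depth is unknown and a larger list cannot be told apart from a deeper one.

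Most clusters were 1 to 5 kb wide. In replicate 1 the median width was 1993 bp, and the middle 80% of clusters lay between 1395 and 4454 bp. In replicate 2 the median was 2032 bp, with the middle 80% between 1396 and 4591 bp. Both lists began at 1301 bp, and their widest clusters had 22962 and 22073 bp. The combined list began at 1001 bp, with a median of 2057 bp and a widest cluster of 25157 bp. Wide clusters were few but held a large part of the covered DNA. Clusters of at least 5 kb made up 7.35% of those of replicate 1 and 8.07% of those of replicate 2. They held 20.2% and 22.4% of the cluster bases, and 31.3% in the combined list.

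Spacing was more uneven than width. The median gap between neighbouring clusters was 2324 bp in replicate 1 and 2089 bp in replicate 2 (2206.5 ± 166 bp, SD, n = 2). The longest 10% of gaps exceeded 11501 bp in replicate 1 and 10337 bp in replicate 2. Gaps above 10 kb numbered 371 in replicate 1 and 329 in replicate 2. They held 49.5% of all bases between clusters in replicate 1 and 46.2% in replicate 2. At the short end, 16.7% and 17.6% of gaps were under 500 bp. The combined list had a median gap of 1341 bp, 25.7% of its gaps were under 500 bp, and 176 exceeded 10 kb.

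Values stayed within a narrow band. The median log2 enrichment over input was 0.52 in replicate 1 and 0.52 in replicate 2 (0.52 ± 0.0034, SD, n = 2). The middle 80% of clusters lay between 0.32 and 0.72 in replicate 1 and between 0.28 and 0.75 in replicate 2. The highest cluster of replicate 1 had 1.08 and that of replicate 2 had 1.25. In the combined list the median was 0.37, and 3003 of 3892 members had at most 0.5.

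Wider clusters carried higher values in all lists, but the narrowest did not carry the lowest. In replicate 1 the median log2 value was 0.41 among 306 clusters of 1.2 to 1.4 kb, 0.39 among 490 of 1.4 to 1.6 kb, and 0.75 among 20 of at least 10 kb. Replicate 2 had 0.37 in the first of these classes, 0.36 in the next, and 0.81 among 37 clusters of at least 10 kb. The combined list dipped more: 0.34 among 377 clusters under 1.2 kb, 0.21 among 346 of 1.4 to 1.6 kb and among 372 of 1.6 to 1.8 kb, and 0.64 among 75 of at least 10 kb. Spearman's rho of width and value was 0.661 in replicate 1, 0.700 in replicate 2 and 0.615 in the combined list. These are correlations across clusters of the same libraries and are given as a description. Width and value come from the same calling of regions and are not independent measures.

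**Figure D1:**
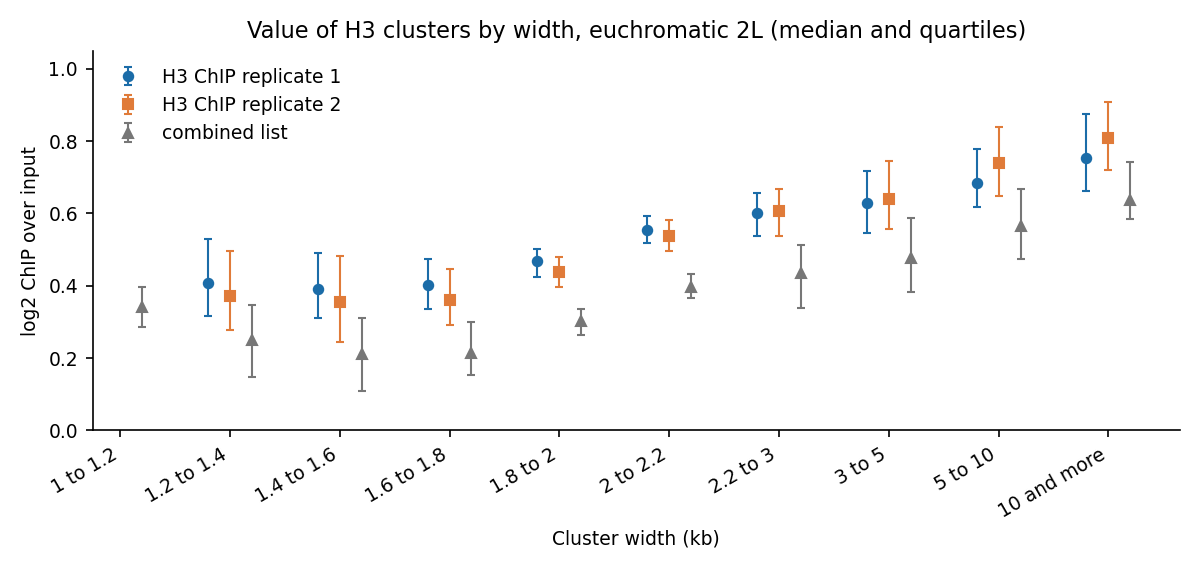
Median log2 ChIP over input (vertical axis) of the clusters of euchromatic 2L in 10 classes of width in kb (horizontal axis), for replicate 1, replicate 2 and the combined list; bars span the quartiles over clusters. Medians are lowest between 1.4 and 1.8 kb and highest at 10 kb and more, where they reach 0.75, 0.81 and 0.64.

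Averaged over blocks of 3 Mb, coverage fell step by step away from the tip and came back before the centromere. At 500 kb the fall was not smooth. The mean of the replicates was 33.6% in the first 500 kb and 68.6% in the next. It was 52.1% at 6.5 to 7 Mb and 29.7% at 7.5 to 8 Mb. In blocks of 3 Mb counted from the tip, replicate 1 had covered shares of 44.9%, 42.4%, 37.7%, 33.7%, 31.7%, 22.9% and 35.8%. Replicate 2 had 50.3%, 46.0%, 41.2%, 34.8%, 33.2%, 23.1% and 40.0%. Each block from the second to the sixth was below the one before it in both replicates and in the combined list, and the last block was above the sixth in all of them. The replicates differed by 0.282 to 5.37 percentage points within a block, with replicate 2 above replicate 1 in each, so the fall over the first 6 blocks was wider than the spread between replicates. Neighbouring blocks often differed by less than that spread.

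The replicates held fewer and narrower clusters in the sixth block than in the first, with lower median values. Between neighbouring blocks number and width did not always move the same way. The first block held 460 clusters in replicate 1 and 495 in replicate 2, and the sixth block held 309 and 316. Median widths were 2169 and 2200 bp in the first block, against 1802 and 1766.5 bp in the sixth. Median log2 values were 0.54 and 0.55 in the first block and 0.52 and 0.48 in the sixth. The number of combined clusters did not follow: it was 519 in the first block, 511 in the sixth and 602 in the last, with 591 in the fourth. Their median width was 2539 bp in the first block and 1787 bp in the sixth.

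**Figure D2:**
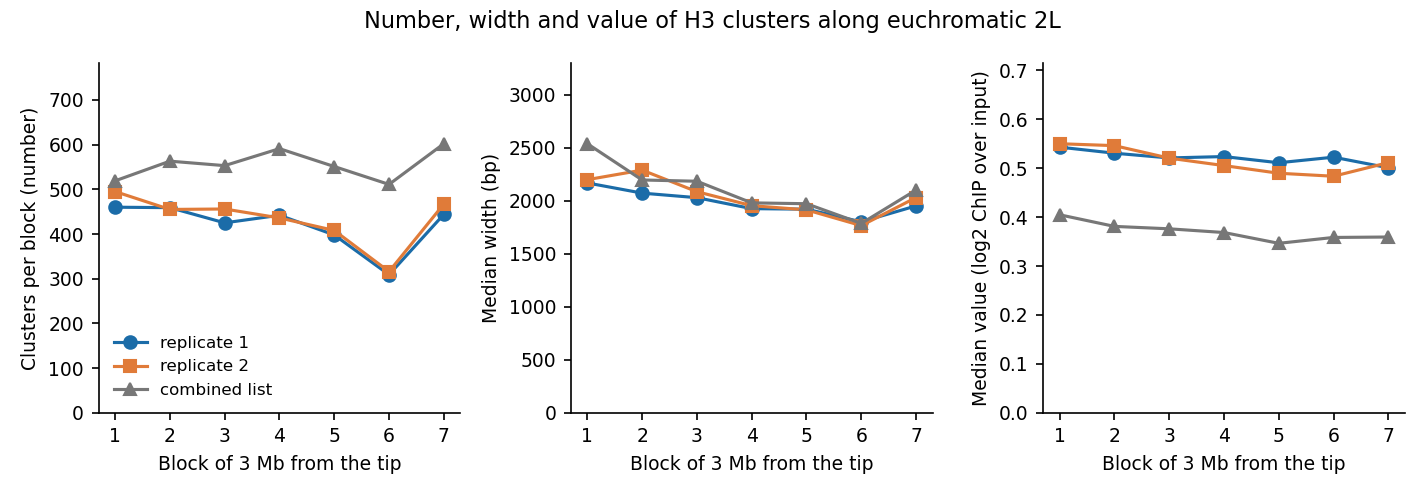
Number of clusters, median width in bp and median log2 ChIP over input (vertical axes) in 7 blocks of 3 Mb counted from the tip of 2L (horizontal axes), for replicate 1, replicate 2 and the combined list. The number of replicate clusters is lowest in block 6, at 309 and 316, while the combined list has 511 there and 519 in block 1.

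Windows of 500 kb differed from each other far more than the replicates did. Over 42 windows the mean covered share of the replicates lay between 14.4% and 68.6%, with 36.8% as their median. In 35 of them replicate 2 was above replicate 1, and the replicates differed by at most 6.88 percentage points. Pearson's r between the replicates across windows was 0.984, as a description of windows from the same libraries. Windows with more coverage had more clusters (r = 0.866), wider ones (r = 0.856) and higher median values (r = 0.675). The covered share is set by the number and width of clusters, so the first 2 correlations hold in part by construction. The third is not separate from width, as wider clusters carried higher values. Neighbouring windows resembled each other only in part (r = 0.429 over 41 pairs).

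The fullest windows lay at 0.5 to 1 Mb, 19 to 19.5 Mb and 4.5 to 5 Mb. At 0.5 to 1 Mb clusters covered 66.5% in replicate 1 and 70.7% in replicate 2 (68.6 ± 2.97%, SD, n = 2). This window had fewer clusters than several others, 76 and 79, but they were wide, with medians of 3412.5 and 3003 bp. At 19 to 19.5 Mb coverage was 54.3% and 57.8% (56.0 ± 2.47%, SD, n = 2), on 99 and 88 clusters. At 4.5 to 5 Mb it was 51.8% and 55.5% (53.7 ± 2.60%, SD, n = 2), on 84 clusters in each replicate.

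The emptiest windows were 17 to 17.5 Mb, 17.5 to 18 Mb and 16 to 16.5 Mb. At 17 to 17.5 Mb replicate 1 covered 14.7% with 37 clusters and replicate 2 covered 14.2% with 34 (14.4 ± 0.40%, SD, n = 2). The next window had 17.2% and 15.6% (16.4 ± 1.12%, SD, n = 2). At 16 to 16.5 Mb the shares were 17.2% and 18.2% (17.7 ± 0.71%, SD, n = 2). Of the 42 windows 4 had a mean under 20%, and the fourth of them, at 9 to 9.5 Mb with 18.0% and 18.4%, lay far from the others.

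**Figure D3:**
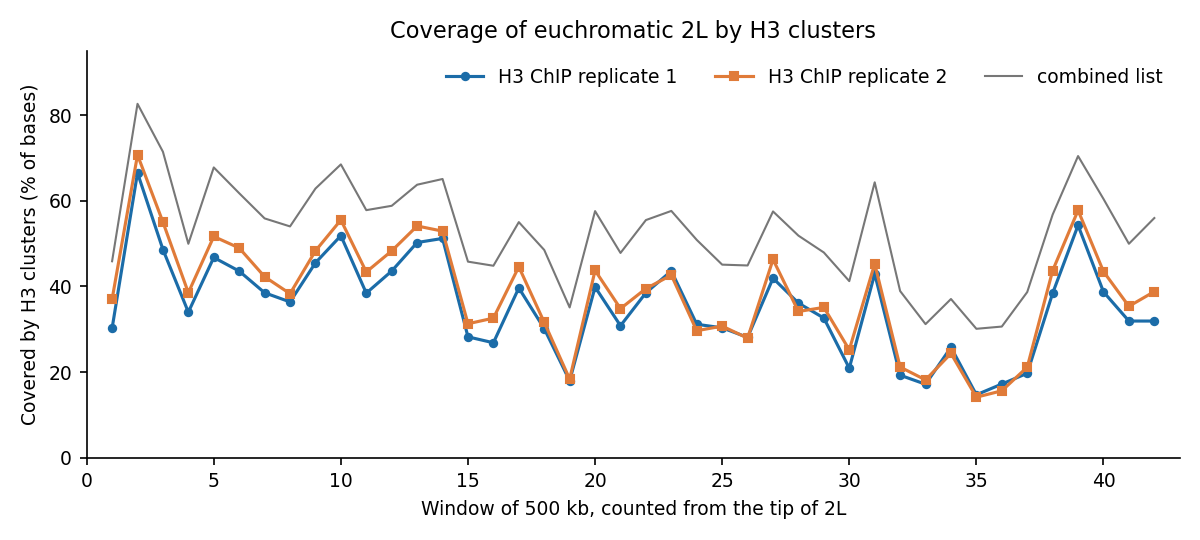
Percent of bases covered by H3 clusters (vertical axis) in 42 windows of 500 kb counted from the tip of 2L (horizontal axis), for H3 ChIP replicate 1, H3 ChIP replicate 2 and the combined list. Window 2 is the highest at 66.5% and 70.7% in the replicates, and window 35 the lowest at 14.7% and 14.2%.

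The emptiest run of 6 neighbouring windows was 15.5 to 18.5 Mb and the fullest 0.5 to 3.5 Mb, both picked from the data. The low stretch was covered over 19.0% in replicate 1 and 19.1% in replicate 2, and the high stretch over 46.3% and 51.2%. The low stretch had 272 and 270 clusters with median gaps of 4166 and 4343 bp. The high stretch had 476 and 504 clusters with median gaps of 1847 and 1513 bp. Clusters of at least 5 kb numbered 8 and 9 in the low stretch, against 50 and 63 in the high one. Median log2 values were 0.52 and 0.49 in the low stretch and 0.54 and 0.55 in the high one. In the combined list the low stretch was covered over 34.4% with 498 clusters and the high stretch over 64.9% with 547.

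At 100 kb the contrast was sharper still. The mean covered share of the replicates over 210 windows ran from 3.86% to 79.9%, with a median of 37.2%. The emptiest, from 17100001 to 17200000, had 4.61% in replicate 1 and 3.12% in replicate 2, on 3 and 2 clusters. The fullest, from 19000001 to 19100000, had 78.7% and 81.2%. These extremes lay less than 2 Mb apart. Windows under 10% numbered 9, of which 6 lay between 15.5 and 18.5 Mb, the stretch picked for its low coverage in the same data. Another was the first 100 kb of the arm, with 6.71% and 7.92%. Windows above 60% numbered 17, of which 12 lay in the first 5 Mb.

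The 5 widest combined clusters all lay in the first 6 Mb of the arm. The widest ran from 744944 to 770100 (25.2 kb, log2 value 0.45). It was not a single domain in the replicates: 6 clusters of replicate 1 covered 65.4% of it and 6 of replicate 2 covered 63.1%, with values from 0.43 to 0.73 and from 0.41 to 0.73. Next was 5121982 to 5145190 (23.2 kb, 0.72), with 1 cluster of replicate 1 over 98.9% and 2 of replicate 2 over 99.3%. The third, 4492128 to 4514328 (22.2 kb), had the highest value of the 5, 0.96. A single cluster matched it in each replicate, over 98.0% with 0.96 in replicate 1 and over 99.4% with 0.98 in replicate 2. The other two were 945158 to 966560 (21.4 kb, 0.75) and 4263288 to 4284408 (21.1 kb, 0.59). Replicate 1 covered 85.5% and 79.5% of these, and replicate 2 covered 89.5% and 92.1%.

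Clusters also stood in close rows. When combined clusters less than 500 bp apart were joined, 2891 rows remained, 708 of them of several clusters, up to 9. The longest row ran from 771292 to 808816 (37.5 kb, 4 clusters) and begins just beyond the widest cluster. The next ran from 4479086 to 4514328 (35.2 kb, 2 clusters) and contains the third widest cluster. Its mean log2 value of 0.97, weighted by length, was above the 0.70 of the longest row and the 0.68 of the third row, from 19483264 to 19517116 (33.9 kb, 7 clusters). Replicates covered at least 87.2% of each of these rows.

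The highest values were of 2 kinds, narrow clusters with no counterpart in either replicate and wide ones found in both. The 5 highest combined clusters had 1001 to 1159 bp, and clusters of the replicates did not touch them. Both replicate lists began at 1301 bp. Neither replicate covered 50% of the bases in 367 of 377 combined clusters under 1.2 kb (97.3%). The median log2 value of the 377 was 0.34, so a missing counterpart goes with this width and is not particular to the highest values. The top value of 3.16 was shared by 20309142 to 20310142 and 20746468 to 20747594. It was followed by 5173594 to 5174614 (2.02), 5177522 to 5178680 (1.87) and 5344172 to 5345204 (1.28). The third and the fourth of these lie within 6 kb of each other, and a further cluster absent from both replicates, with a value of 1.25, starts 20 bp after the fourth.

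A combined cluster counted as matched by a replicate when clusters of that replicate held at least 50% of its bases. Among members matched by both replicates, the highest value was 1.12. It belonged to 11436052 to 11441236 (5.19 kb), which had 1.08 in replicate 1 and 1.23 in replicate 2. The next were 2979508 to 2986718 (1.02, with 0.96 and 0.90), 5316540 to 5325574 (1.02, with 0.93 and 1.13), 6973026 to 6985626 (1.01, with 0.91 and 1.14) and 6139258 to 6145408 (1.01, with 0.96 and 1.15). In 4 of these 5 replicate 2 was the higher. Each was a single cluster in both replicates and had 5.19 to 12.6 kb. The 6 narrow clusters of higher value were matched by neither.

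The longest stretches without a combined cluster were about as long as the longest rows of clusters. They ran from 12459009 to 12501163 (42.2 kb), 14203215 to 14243587 (40.4 kb), 10224739 to 10262529 (37.8 kb), 16574229 to 16607221 (33.0 kb) and 18555063 to 18585923 (30.9 kb). Replicate 1 had no base in 4 of them and replicate 2 none in 2. Both had clusters in the fourth, where replicate 1 covered 1623 bp and replicate 2 1317 bp, with values from 0.12 to 0.33 and from 0.20 to 0.33. The replicate lists had longer gaps, 75.7 kb in replicate 1 from 15776092 to 15851762 and 82.8 kb in replicate 2 from 17287857 to 17370656. Neither was empty in the other replicate, which had 2 clusters in the first and 6 in the second. The sources used here do not say whether reads could be placed in these stretches, so a missing cluster need not mean missing enrichment.

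Most clusters of each replicate had a counterpart in the other. By the same measure of 50% of the bases, replicate 2 matched 86.8% (95% Wilson interval 85.6 to 88.0%) of the replicate 1 clusters of euchromatic 2L. In the other direction the share was 81.0% (79.5 to 82.3%). The Jaccard index of covered bases, the shared bases over all bases covered by either, was 0.722. Over 2433 pairs of clusters that were each other's best match, the starts differed by a median of 105 bp and the ends by 105 bp. Both ends lay within 200 bp in 48.8% of pairs, and an end was off by more than 1000 bp in 17.3%. Replicate 2 had the wider cluster in 60.6% of pairs.

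In strength, replicate 2 minus replicate 1 had a median of 0.01 and an SD of 0.12 log2 units over these pairs. Spearman's rho was 0.754 and Pearson's r 0.779, as a description over clusters of the same libraries. The sign of the difference depended on strength. Among 969 pairs with a mean value of up to 0.5 the median difference was -0.02, and among 1464 stronger pairs it was 0.03. Clusters that the other replicate did not touch numbered 327 in replicate 1 and 509 in replicate 2, and they were weaker and narrower. Their median log2 value was 0.43 in replicate 1 and 0.40 in replicate 2, against 0.53 and 0.54 for clusters with a counterpart. Their median width was 1462 and 1484 bp, against 2066.5 and 2231 bp.

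Of the 3892 combined clusters, 2093 or 53.8% (95% Wilson interval 52.2 to 55.3%) were matched by both replicates. Only replicate 1 matched 309, and only replicate 2 matched 517. Neither matched the last 973, 25% (23.7 to 26.4%), and 924 of these were not touched at all. Clusters matched by both held 70.9% of the members' bases and had a median width of 2845 bp. Those matched by neither held 12.8% and had 1271 bp. As the combined list presumably rests on the same replicates, this is not independent evidence for its clusters. Wilson intervals cover counting error only and treat clusters as independent, which neighbours are not.

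Narrow and weak members were matched least. Of 746 combined clusters under 1400 bp, 0 were matched by both replicates and 657 by neither. Of these narrow clusters 564 were under 1301 bp, narrower than any replicate cluster. Among the 3146 clusters from 1400 bp upward both replicates matched 66.5%, and among 75 of at least 10 kb 98.7% (92.8 to 99.8%). By value, both replicates matched 23.6% of 840 clusters of up to 0.25, 49.8% of 2163 from there to 0.5 and 92.0% of 777 from 0.5 to 0.75. They matched 96.0% of 100 clusters between 0.75 and 1 and 6 of the 12 above 1.

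The share matched by both replicates also varied along the arm. A match needs bases of replicate clusters, so this share depends by construction on how much of a block the replicates cover. It was 60.7% of 519 combined clusters in the first 3 Mb, 57.7%, 57.9%, 53.0% and 52.1% in the following blocks, 40.7% of 511 at 15 to 18 Mb and 53.7% of 602 in the last block. The share matched by neither was 17.0% in the first block and 35.8% at 15 to 18 Mb. Over windows of 500 kb the combined list covered 1.20 to 2.09 times as many bases as the mean of the replicates. The lowest ratio was in the fullest window, at 0.5 to 1 Mb, and the highest in the emptiest, at 17 to 17.5 Mb. A full window cannot show a large ratio, since the share cannot exceed the whole.

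**Figure D4:**
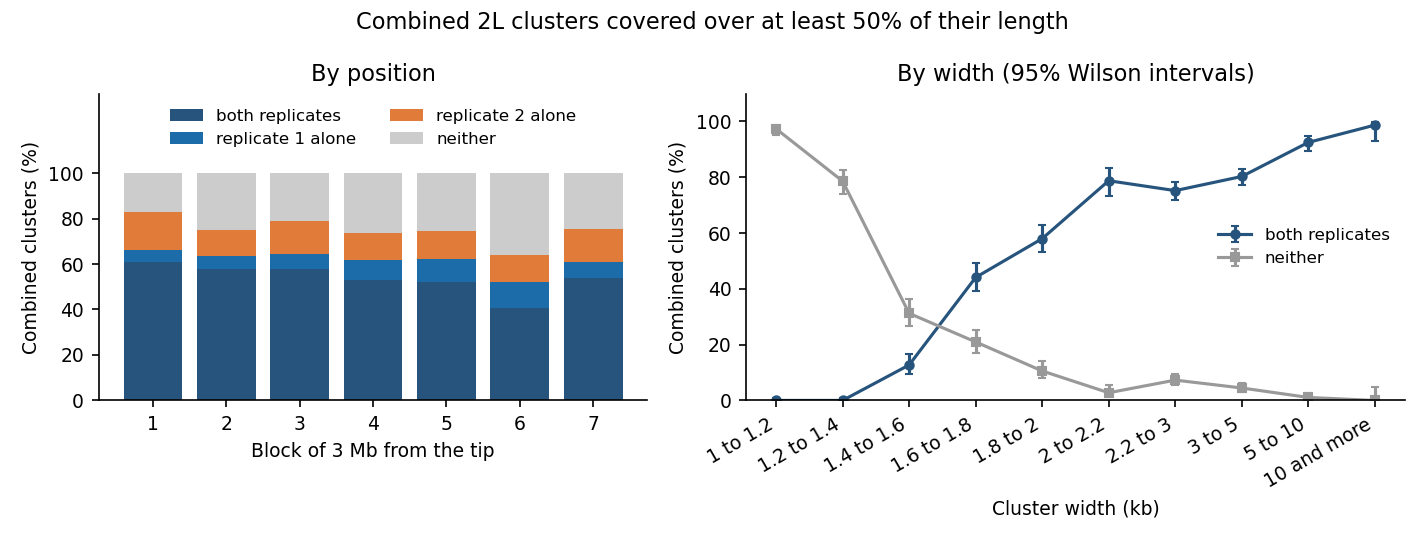
Left, percent of combined 2L clusters (vertical axis) with at least 50% of their bases in clusters of both replicates, of 1 of them or of neither, in 7 blocks of 3 Mb from the tip (horizontal axis). Right, the percent matched by both and by neither in 10 classes of width in kb, with 95% Wilson intervals. Both replicates match 60.7% in block 1 and 40.7% in block 6, and 0 clusters under 1.4 kb.

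Beside the arms of chromosome 3, 2L was covered less and had longer gaps and fewer clusters per Mb, at much the same median value. On each arm the last 2 Mb by base number were left out. On 2L and 3L these lie nearest the centromere. Base numbers of 3R run from the centromere, so its window kept the centromeric end and lost 2 Mb at the tip. The 3R values are therefore not from a window matched to that of 2L. Clusters covered 37.0 ± 1.99% of 2L, 39.7 ± 2.14% of 3L and 46.0 ± 2.80% of 3R (SD, n = 2 for each). The difference of 2L minus 3L was -2.61 percentage points in replicate 1 and -2.82 in replicate 2, and that of 2L minus 3R was -8.48 and -9.63. The difference from 3L was larger than its own spread between replicates (-2.71 ± 0.15, SD, n = 2), although the levels of the 2 arms overlap, since replicate 2 on 2L was above replicate 1 on 3L. With 2 replicates an exact sign-flip test cannot go below p = 0.5, so no test was made, and the arms are not replicates of each other.

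The median gap was 2206.5 ± 166 bp on 2L, 2011 ± 116 bp on 3L and 1710 ± 97.9 bp on 3R (SD, n = 2 for each). Clusters per Mb numbered 142 ± 3.23 on 2L, 149 ± 3.54 on 3L and 167 ± 1.91 on 3R (SD, n = 2 for each). Median widths were closer, 2012.5 ± 27.6 bp on 2L, 2047 ± 18.4 bp on 3L and 2116 ± 58.0 bp on 3R (SD, n = 2 for each). Median log2 values were 0.52 on each arm in both replicates, except 0.51 on 3L in replicate 2 and 0.53 on 3R in replicate 1. The difference of 2L minus 3L had opposite signs in the replicates, -0.0023 and 0.0060. In the combined list 2L had more clusters per Mb than 3L, 185 against 182, so the lower number on 2L did not hold there, while its lower covered share did (52.8% against 54.8%).

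Windows of 500 kb under 20% numbered 4 of 42 on 2L, 1 of 45 on 3L and 0 of 51 on 3R. Windows above 50% numbered 6 on 2L, 7 on 3L and 16 on 3R. The single fullest window was on 2L, with 68.6% against 64.5% on 3L and 64.7% on 3R. The single emptiest was on 3L, as the lowest windows had 14.4% on 2L, 9.99% on 3L and 29.1% on 3R. Of the combined clusters, both replicates matched 53.8% on 2L, 56.9% (55.4 to 58.4%) on 3L and 60.8% (59.4 to 62.1%) on 3R. The windows and clusters of 3R include its centromeric end and leave out the 2 Mb at its tip, unlike those of 2L and 3L. The differences between arms were not tested.

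**Figure D5:**
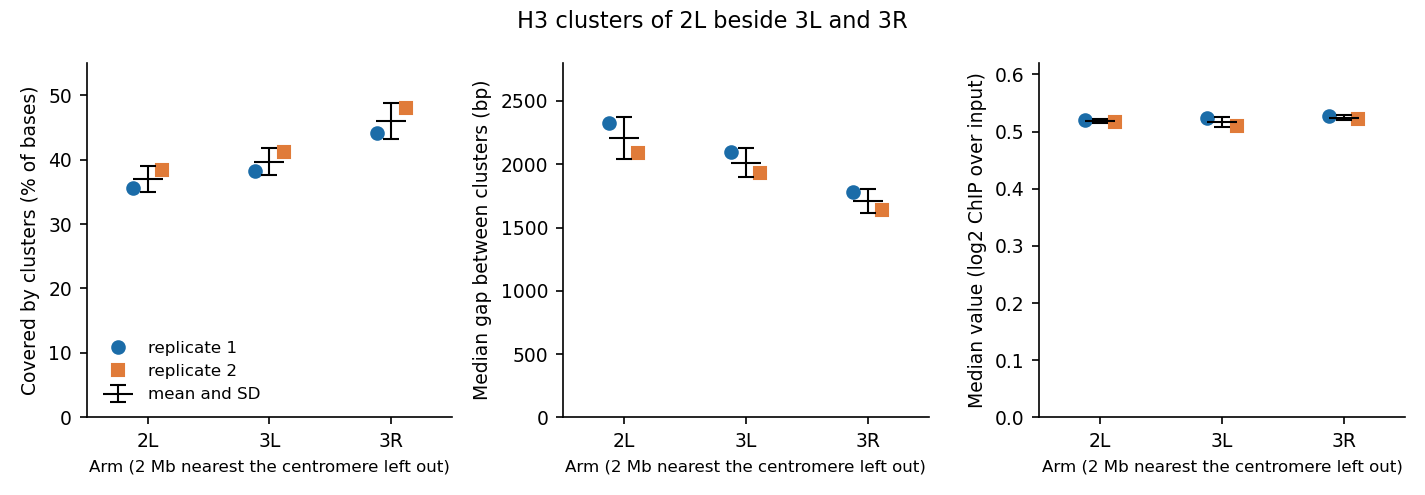
Percent of bases covered by clusters, median gap in bp and median log2 ChIP over input (vertical axes) on 2L, 3L and 3R (horizontal axes). The last 2 Mb by base number are left out. They lie nearest the centromere on 2L and 3L but at the tip on 3R, where the axis label does not hold. Points are the 2 replicates, and the black bar is their mean with the SD. The covered share is 35.6% and 38.4% on 2L and 44.1% and 48.0% on 3R, while median values lie between 0.51 and 0.53 on all arms.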

How the data were processed

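Nuclei of Oregon-R 3rd instar larvae were crosslinked with formaldehyde and sonicated before H3 immunoprecipitation, per the labels' protocols. Bowtie 0.12.7 is named in the submitters' processing notes, and FlyBase r5 is the genome build, per the file headers. How regions were called, how ChIP was scaled to input and how repeats were treated, the sources used here do not give. The authors deposited 3 lists of regions with 1 value each, taken as log2 ChIP over input. No header names this unit. Among the 40 highest distinct values of each list, 608 of 780 pairs (combined), 618 (replicate 1) and 597 (replicate 2) had a difference that, read as log2, gives a ratio of small integers (denominator up to 100, tolerance 1e-08), against 0 on a natural log scale and 8, 8 and 5 on a log10 scale. The sources used here do not say whether a value is a mean or a maximum.

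From these lists, covered bases, widths, gaps (bases between neighbouring clusters) and overlaps were computed with pandas 2.3.3, numpy 2.4.6 and scipy 1.17.1 in Python 3.11.15, and checked on 50 simulated lists. Windows start at base 1. The regions named are the 5 widest and 5 highest clusters, the 5 longest gaps and the 3 highest and lowest windows. Rows of clusters, replicate gaps, blocks, 100 kb windows, runs of windows, classes of width and value, and high clusters found in both replicates were added after the data had been seen. The members and measures were chosen with earlier results of these data known. ChIP and input were compared only through the deposited ratio, as separate input values were not used here. No gene positions or genome sequence on FlyBase r5 were used here, so no cluster is assigned to a gene and no sequence is shown.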

Additional observations from a re-analysis of the deposited data

How the results depend on the processing

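Of 38 values of 10 results recomputed with both replicates or with the combined list, 11 stayed within the spread between replicates (for the number of clusters within 1.5 times, for the share matched by both replicates within its Wilson interval), and 27 moved further. Leaving out 1 of 2 replicates gave 20 more values, which say nothing about stability: a mean of 2 values always moves by less than their SD when 1 is left out. Of the differences between arms only those in covered share were recomputed, and neither changed sign. With the combined list in place of the replicate mean, the covered share was 52.8%, the median width 2057 bp, the median gap 1341 bp, the median log2 value 0.37, the difference of 2L minus 3L -1.98 points, the highest window 82.6% and the lowest 30.1%. With only clusters at or above the median value of their list there were 1307.5 clusters covering 21.8%, where widths had a median of 2834.75 bp, gaps one of 6314 bp and log2 values one of 0.64, as fewer clusters remain by construction. The arm differences were then -1.57 (3L) and -5.95 points (3R), the highest window 56.2%, the lowest 6.57% and the share matched by both replicates 81.8%. Merging clusters closer than 500 bp gave median gaps of 3017 bp and widths of 2163.75 bp. Leaving out the last 4 Mb by base number gave arm differences of -2.42 (3L) and -8.11 points (3R). These 4 Mb lie at the centromeric end of 2L and 3L but at the tip of 3R. The effect of the centromeric end of 3R was therefore not examined. The highest and lowest windows were 77.4% and 7.44% at 250 kb and 52.1% and 15.4% at 1 Mb. Both replicates matched 57.7% of combined clusters when 1 bp sufficed, 33.0% when 80% was required, and 61.7 to 67.1% with 1 replicate left out, since only 1 then has to match a cluster. No paired analysis was possible because the groups that share replicate numbers are ChIP and input, and input enters only through the deposited ratio; differences between arms were taken within each replicate. Depth is unknown and limits every count of clusters.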

Other observations

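Regions labelled as depleted on euchromatic 2L were few, short and close to 0. The combined list held 56, of 1365 to 1731 bp, with a median log2 value of -0.04. Replicate 1 had 0 depleted regions in the same window and replicate 2 had 3, of which 2 lay on a depleted region of the combined list. The lowest values were -0.16 from 12613232 to 12614794, -0.12 from 16859488 to 16861124 and -0.11 from 11788250 to 11789840. In blocks of 3 Mb from the tip they numbered 3, 8, 8, 9, 10, 10 and 8.

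Some of these depleted regions overlapped enriched clusters of the replicates. Of the 56, 34 had a base in a cluster of at least 1 replicate, and in 8 clusters of both replicates held at least 50% of the bases. Over the whole window 31.0% of bases lay in clusters of both replicates and 57.0% in clusters of neither. However, 0 of the 56 regions touched a combined cluster, so bases outside combined clusters are the nearer reference. Of those bases, 10.6 kb lay in clusters of both replicates, 48.0 kb in replicate 1 alone and 53.2 kb in replicate 2 alone. Another 9808 kb lay in clusters of neither, so replicate clusters were rare there. Counts of regions and of bases are unlike measures, and the difference was not tested. The region of lowest value was among the 8, with log2 values of 0.11 in replicate 1 and 0.10 in replicate 2 against -0.16 in the combined list. Over the 8 places the values ran from 0.06 to 0.28 in replicate 1, from 0.0089 to 0.30 in replicate 2 and from -0.16 to -0.0030 in the combined list. Conversely, 8 clusters of replicate 1 were shared with replicate 2 and had no base in a combined cluster, and all 8 lay on a depleted region. The labels of these places thus differ in sign between the lists. The sources used here do not say how the combined values were computed, and the cause was not tested. One of the 8, from 16578314 to 16579900, lies inside the fourth longest stretch without a combined cluster.

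Combined clusters shared a base with the next one in 2 places. At base 5030240 a cluster of log2 value 0.22 (1775 bp) met one of 0.96 (11653 bp). At base 9251380 a cluster of 0.07 with no base in either replicate met one of 0.32, of which replicate 1 covered 73.8% and replicate 2 90.2%.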
